A study of Bos taurus with 39 samples.

Results

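The members described here are bta-miR-21-5p and bta-miR-21-3p, the mature miRNAs from the left and the right arm of the bovine miR-21 hairpin, and they are 2 of the 1995 mature miRNAs counted in bovine oocytes. Their rows were taken over all 13 conditions of the experiment. The pair was selected on measured values of these libraries, namely the difference of bta-miR-21-5p between the control and CBX groups at 22 h, its arm ratio and its values at 6 h. Those values are therefore given as a description, with no test. In 10 comparisons that use neither the control nor the CBX libraries at 22 h nor any library at 6 h, bta-miR-21-5p was tested.

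Oocytes came from slaughterhouse ovaries of cattle, and each condition had 3 libraries of pooled oocytes. In the control group, oocytes matured in vitro inside their cumulus-oocyte complexes (COCs), and in the CBX group carbenoxolone, which closes gap junctions, was added to the medium of the COCs. Under co-culture (cocult), oocytes stripped of cumulus cells shared medium with COCs across a porous membrane, and in the DO group the denuded oocytes matured alone. These 4 groups were collected at 1, 6 and 22 h, and 3 further control libraries are labelled 0 h, which gives 39 libraries. The comparisons address whether miRNAs in the oocyte depend on gap junctions, on contact with cumulus cells or on cumulus cells nearby. The cumulus cells of the control and CBX groups were removed by vortexing in hyaluronidase after maturation, while denuded oocytes had lost theirs before maturation and had their zona removed with pronase. The handling before lysis followed the group, so that handling and group cannot be told apart. The paper states that oocytes with a visible polar body were chosen before lysis, without naming the times to which this applied. Its design places oocytes at the germinal vesicle stage at 1 h, at germinal vesicle breakdown at 6 h and at metaphase II at 22 h. Meiotic stage and time therefore cannot be told apart. The label of all libraries is oocyte. The paper describes each replicate as pooled from repeats of the experiment, with the ovary pool entered as batch. Nothing in the labels ties the libraries of a condition to separate animals, so p-values measure the spread between these samples, which may be partly technical.

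MiR-21 is one of the most studied animal miRNAs. Its hairpin is cut by Drosha and Dicer into a duplex, of which one strand is usually loaded into an Argonaute protein and the other is degraded. The 5p strand is the guide strand in most mammalian tissues, and its known targets include PDCD4, an inhibitor of translation. In the ovary, miR-21 is known as a miRNA of granulosa and cumulus cells that is induced around ovulation and supports cell survival. In the RefSeq annotation of the bovine genome, MIR21 lies directly after VMP1, a gene of autophagy and vacuole formation, and directly before TUBD1, a tubulin gene, and overlaps neither. The name MIR21 is also listed among the synonyms of VMP1. The build of that annotation differs from ARS-UCD1.2, to which the reads were aligned, so no coordinates are given.

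The mature sequence of miR-21-5p is shown because it is the strand that carried all counts, and miR-92a and miR-93 are shown because they were the RT-qPCR references of the study and serve below as a second scale. All were taken from the target list of the study and are written 5′ to 3′, with the seed (bases 2 to 8), the part that pairs with target mRNAs, in capitals.
miR-21-5p: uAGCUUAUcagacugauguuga
miR-92a: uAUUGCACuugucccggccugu
miR-93: cAAAGUGCuguucgugcaggua
Each sequence is 22 bases long and the 3 seeds differ, so each miRNA pairs with a different class of target sites. Because mature miRNAs are of nearly equal length, their counts were compared without scaling by length.

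The arms of miR-21 were unequal in every library. Over the 39 libraries, 14720 counts fell on bta-miR-21-5p and 0 on bta-miR-21-3p, which allows the 3p arm a share of up to 0.0204% of the counts of both arms. In single libraries, bta-miR-21-5p had between 52 counts (control 0 h, replicate 1) and 1159 counts (control 22 h, replicate 1). With the floor of 3 counts taken for an arm at 0, the 5p arm was at least 17.3-fold higher in the first of these libraries and at least 386-fold higher in the second. These bounds follow the depth of each library, and they cannot show whether the arm ratio differed between groups or times. Summed over the 3 libraries of a condition, bta-miR-21-5p had 432 counts in control 0 h, 435 counts in control 6 h and 2595 counts in control 22 h, each beside 0 counts of bta-miR-21-3p. Because the passenger strand had no count, bta-miR-21-3p passed no low-count filter and no comparison of it was possible.

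The same table lists 83 miRNAs with both arms, of which 25 had no count in either. In 28 of them both arms together had at least 100 counts, the 5p arm having more counts in 17 and the 3p arm in 11. The arm with fewer counts was at 0 in 3 of the 28, namely miR-21, miR-2419 with 268 counts and miR-6119 with 100 counts, and over the other 27 miRNAs the median share of the minor arm was 1.68%. With at least 1000 counts required, 13 miRNAs remained and miR-21 was the one whose minor arm was at 0. The minor arms of the other 12 held between 0.0263% and 16.9% of the counts, with a median of 0.901%. By counts of both arms, miR-21 was the third. Ahead of it were let-7a, a miRNA that restrains growth and pluripotency genes, with 68417 counts of the 5p and 18 counts of the 3p arm, and miR-9, best known from neurons, with 33678 and 45 counts. Next came miR-503, with 4475 counts of the 5p and 32 counts of the 3p arm, and miR-423, with 4037 and 144 counts.

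**Figure D1:**
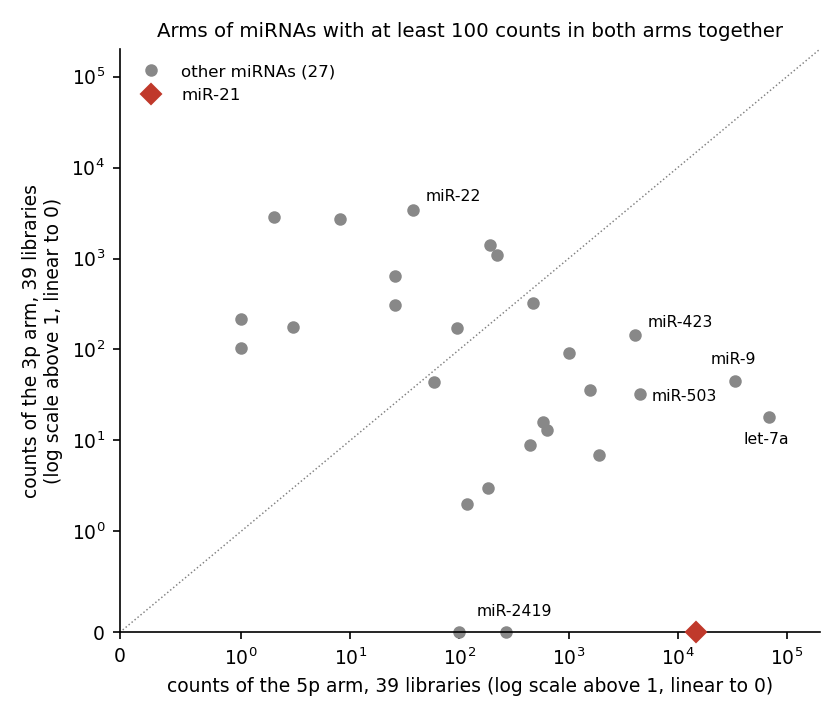
Counts of the 5p arm (horizontal axis) and of the 3p arm (vertical axis), each summed over 39 libraries, for the 28 miRNAs with at least 100 counts in both arms together; both axes are logarithmic above 1 and the dotted line marks equal counts. MiR-21 (diamond) lies on the horizontal axis at 14720 counts of the 5p and 0 counts of the 3p arm, to the right of the other points on that axis, miR-6119 at 100 and miR-2419 at 268.

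The miRNA counts per library ran from 11985 to 175429 (median 70069), and known miRNAs held 37.8% to 52.7% of them. Any 2 replicates of a condition differed beyond sampling noise (chi-square divided by its degrees of freedom from 3.86 to 17.1 over 39 pairs). Intervals and floors given here cover counting error only. The smallest library, control 0 h replicate 1, had 52 counts of bta-miR-21-5p, or 4339 CPM (before TMM scaling) with a 95% exact binomial interval from 3242 to 5686.

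At the start of maturation, bta-miR-21-5p was at 4607, 2540 and 4196 TMM-normalized CPM in the control libraries labelled 0 h (replicates 1, 2 and 3). TMM-normalized CPM is the level unit used below, and it means counts per library total (CPM) after scaling the 39 libraries to one another. At 1 h the control libraries were at 5634, 3236 and 3872 CPM. The CBX libraries at 1 h were at 6656, 2987 and 3469 CPM. Replicate 1 was the highest of both groups, and the 2 groups covered nearly the same range. The cocult libraries at 1 h were at 4954, 4196 and 3400 CPM. The DO libraries at 1 h were at 4133, 4138 and 3061 CPM. All 4 groups overlapped at 1 h.

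At 6 h the control libraries lay close together, at 3288, 3397 and 3313 CPM. The CBX libraries at 6 h were at 5784, 3451 and 3825 CPM, so that all 3 were above all 3 control libraries, replicate 2 by a small step. The cocult libraries at 6 h were at 5389, 3117 and 2248 CPM, the last being the lowest of all 39 libraries. The DO libraries at 6 h were at 4600, 4774 and 3145 CPM, and both of these groups overlapped the control and CBX libraries. The control libraries at 6 h held few counts of bta-miR-21-5p (61, 162 and 212), so the spread of their levels is below the counting error of the shallowest of them.

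At 22 h the control libraries were at 9524, 10310 and 7625 CPM. The CBX libraries at 22 h were at 4642, 3318 and 4768 CPM. All 3 control libraries exceeded all 3 CBX libraries, and the CBX libraries lay within the span of the 1 h and 6 h libraries. The cocult libraries at 22 h were at 6389, 4289 and 4690 CPM. The DO libraries at 22 h were at 5634, 6759 and 4987 CPM. Both denuded groups overlapped each other and lay below the control group, and the lowest DO library was above the highest CBX library. In raw counts, bta-miR-21-5p had 1159, 720 and 716 counts in the control libraries and 413, 61 and 398 counts in the CBX libraries at 22 h, and the second CBX library was a shallow one.

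**Figure D2:**
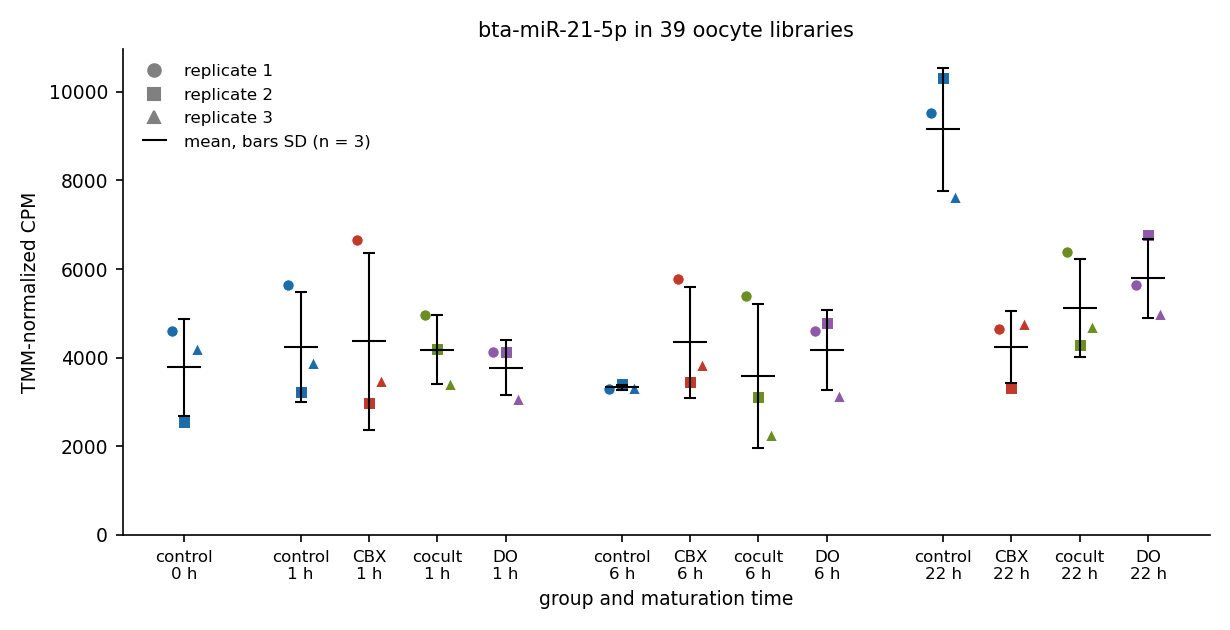
TMM-normalized CPM of bta-miR-21-5p (vertical axis) in the 13 conditions (horizontal axis, by maturation time), with 1 symbol per library, the symbol shape giving the replicate, and the mean with its SD (n = 3) in black. The 3 control libraries at 22 h sit between 7625 and 10310, above the other 36 libraries, which lie between 2248 and 6759.

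Ordered by their means, the conditions began with control 22 h, at 9153 ± 1380 CPM (SD, n = 3), whose lowest library was above the highest of the other 36 (6759 CPM, DO 22 h replicate 2). DO 22 h followed at 5793 ± 897 CPM (SD, n = 3) and cocult 22 h at 5123 ± 1115 CPM (SD, n = 3). The remaining 10 conditions lay close together, from CBX 1 h at 4371 ± 1994 CPM (SD, n = 3) down to control 6 h at 3332 ± 57.4 CPM (SD, n = 3). CBX 22 h was among them at 4243 ± 803 CPM (SD, n = 3), beside control 1 h at 4247 ± 1243 CPM (SD, n = 3). Apart from the step between control 22 h and DO 22 h, every 2 neighbours in this order overlapped in their libraries. Among the known miRNAs of a library, bta-miR-21-5p took the 12th to 16th place in control 22 h and places 16 to 32 in the other 36 libraries. It held 1.68% to 2.27% of the known miRNA counts in control 22 h. Of the 116 known miRNAs with at least 390 counts in all, bta-miR-21-5p was the only one whose 3 highest libraries were all of 1 condition. This count describes the values that led to the choice of the miRNA and tests nothing.

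On the scale of miR-92a and miR-93, the order was the same at the top. Both are members of the miR-17 family of clusters, which are abundant in dividing cells. The log2 ratio of bta-miR-21-5p to the geometric mean of the 2 references was 0.15 ± 0.21 (SD, n = 3) in control 22 h, where the lowest library was at -0.09 and the highest of the other 36 libraries at -0.32. In CBX 22 h the log2 ratio was -1.04 ± 0.30 (SD, n = 3), in cocult 22 h -0.73 ± 0.34 (SD, n = 3) and in DO 22 h -0.66 ± 0.34 (SD, n = 3). The references themselves were at 9341 ± 1309 CPM (miR-92a) and 7296 ± 970 CPM (miR-93) in control 22 h and at 13221 ± 3702 CPM (miR-92a) and 5981 ± 1914 CPM (miR-93) in CBX 22 h (SD, n = 3). Their fitted log2 fold changes from control to CBX at 22 h were 0.49 (SE 0.17) for miR-92a and -0.30 (SE 0.18) for miR-93, in opposite directions.

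**Figure D3:**
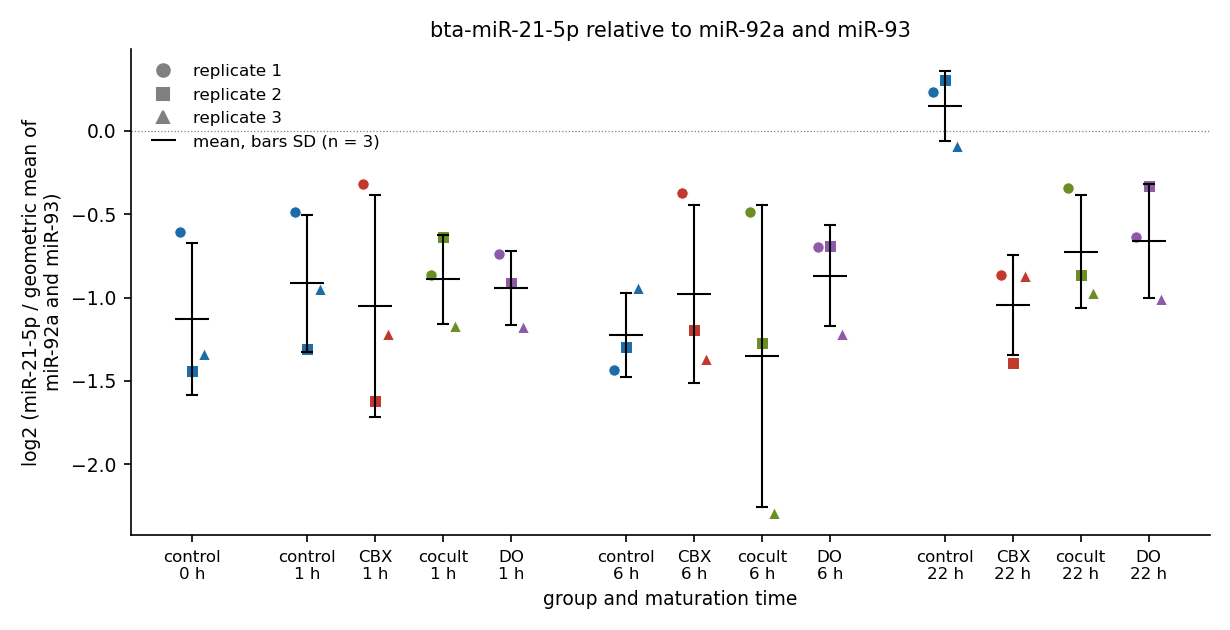
Log2 ratio of bta-miR-21-5p to the geometric mean of miR-92a and miR-93 counts (vertical axis) in the 13 conditions (horizontal axis), with 1 symbol per library and the mean with its SD (n = 3) in black; the dotted line marks equal levels. The lowest control library at 22 h is at -0.09 and the highest of the other 36 libraries at -0.32.

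Between groups at 1 h, no difference of bta-miR-21-5p passed the threshold, which asked for an adjusted p under 0.05 in edgeR's quasi-likelihood test and a log2 fold change of 1 or more in size. All fold changes are the second group named over the first. From control to CBX the log2 fold change was -0.05 (SE 0.24, edgeR adjusted p = 0.997), and 0% of the 448 miRNAs tested passed. From control to cocult it was -0.01 (SE 0.19, edgeR adjusted p = 0.995), where 0% of 443 passed. From control to DO it was -0.12 (SE 0.24, edgeR adjusted p = 0.969), where 0% of 439 passed. Cumulus contact and carbenoxolone thus came with no detectable difference of bta-miR-21-5p at this time. The standard errors leave room for differences larger than themselves in either direction. Between CBX and cocult the log2 fold change was 0.01 (SE 0.22, edgeR adjusted p = 0.999), where 0% of 486 passed. Between CBX and DO it was -0.11 (SE 0.33, edgeR adjusted p = 0.991), where 1.46% of 479 passed. Between cocult and DO it was -0.15 (SE 0.24, edgeR adjusted p = 0.979), where 0% of 465 passed. In the 5 of these comparisons with no miRNA past the threshold, 11, 10, 15, 18 and 22 miRNAs had an unadjusted p under 0.05 in the order given, and DESeq2 called 1 miRNA between CBX and cocult and 0 in the other 4.

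In time, bta-miR-21-5p was tested in the 2 denuded groups and at the start of maturation. In DO, all 3 replicate pairs were higher at 22 h than at 1 h, with a log2 fold change of 0.52 (SE 0.22), an unadjusted p of 0.041 in edgeR and an adjusted p of 0.428, where 1.81% of the 442 miRNAs tested passed the threshold. The difference therefore did not pass. The exact two-sided permutation test of 3 against 3 libraries gave p = 0.1, the smallest it allows. In cocult the log2 fold change from 1 h to 22 h was 0.26 (SE 0.21, edgeR adjusted p = 0.886), with 3 of 3 pairs higher, and 0% of 440 passed. In one fit over all 39 libraries, the changes from 1 h to 22 h were 0.64 in DO and 0.29 in cocult. That fit also took in the libraries on which the miRNA was selected. In it the DO change exceeded the cocult change by 0.35 on the log2 scale (SE 0.34, adjusted p = 1 in edgeR's interaction test across 598 miRNAs), which is about its standard error. Between cocult and DO at 22 h the log2 fold change was 0.12 (SE 0.18, edgeR adjusted p = 0.902), where 0% of 420 passed. From 0 h to 1 h the control group gave 0.15 (SE 0.28, edgeR adjusted p = 0.994), where 0% of 409 passed. In the last 3 comparisons with 0 calls (cocult in time, cocult and DO at 22 h, control from 0 h to 1 h), 26, 30 and 16 miRNAs had an unadjusted p under 0.05 in edgeR, and DESeq2 called 1, 3 and 0. The exact permutation p-values of all 10 comparisons were between 0.1 and 1, and all became 1 after Benjamini-Hochberg adjustment over the 10.

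The comparisons below involve the libraries on which bta-miR-21-5p was selected, or the 6 h values that its choice names, and carry no test. From control to CBX at 22 h the log2 fold change was -1.08 (SE 0.22), a level 2.12-fold lower in CBX, with 3 of 3 pairs lower. It was the 2nd lowest of 120 known miRNAs fitted. From control to cocult at 22 h it was -0.86 (SE 0.18), the 4th lowest of 117 known miRNAs. From control to DO at 22 h it was -0.68 (SE 0.15), the 6th lowest of 115. The 3 values share the same control libraries, so they are not independent of each other. Each of the other 3 groups was thus below the control in all 3 pairs, and the fitted differences of CBX from cocult and DO were smaller, with 0.27 (SE 0.19) from CBX to cocult and 0.41 (SE 0.24) from CBX to DO, the latter 0.13 without replicate 2.

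Within the control group, the difference lay between 6 h and 22 h. Its log2 fold change was -0.28 (SE 0.29) from 1 h to 6 h and 1.39 (SE 0.20) from 6 h to 22 h, the highest of the 110 known miRNAs fitted. From 1 h to 22 h it was 1.10 (SE 0.21), the 3rd highest of 118, and from 0 h to 22 h it was 1.33 (SE 0.31). For CBX it was 0.00 (SE 0.29) from 1 h to 6 h and 0.04 (SE 0.30) from 6 h to 22 h. The CBX group thus showed little difference in time. In one fit over all 39 libraries, its change from 1 h to 22 h was 1.12 lower on the log2 scale (SE 0.34) than that of the control group. In cocult the log2 fold change was -0.31 (SE 0.22) from 1 h to 6 h and 0.57 (SE 0.21) from 6 h to 22 h, the latter 0.36 without replicate 3. In DO it was 0.13 (SE 0.15) from 1 h to 6 h and 0.46 (SE 0.16) from 6 h to 22 h. At 6 h the 6 comparisons between groups gave log2 fold changes between -0.28 (SE 0.17, CBX to cocult) and 0.25 (SE 0.20, cocult to DO), with 0.24 (SE 0.36) from control to CBX, which was 0.03 without replicate 1. The other 2 extremes at 6 h were -0.13 without replicate 3 (CBX to cocult) and 0.09 without replicate 2 (cocult to DO).

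**Figure D4:**
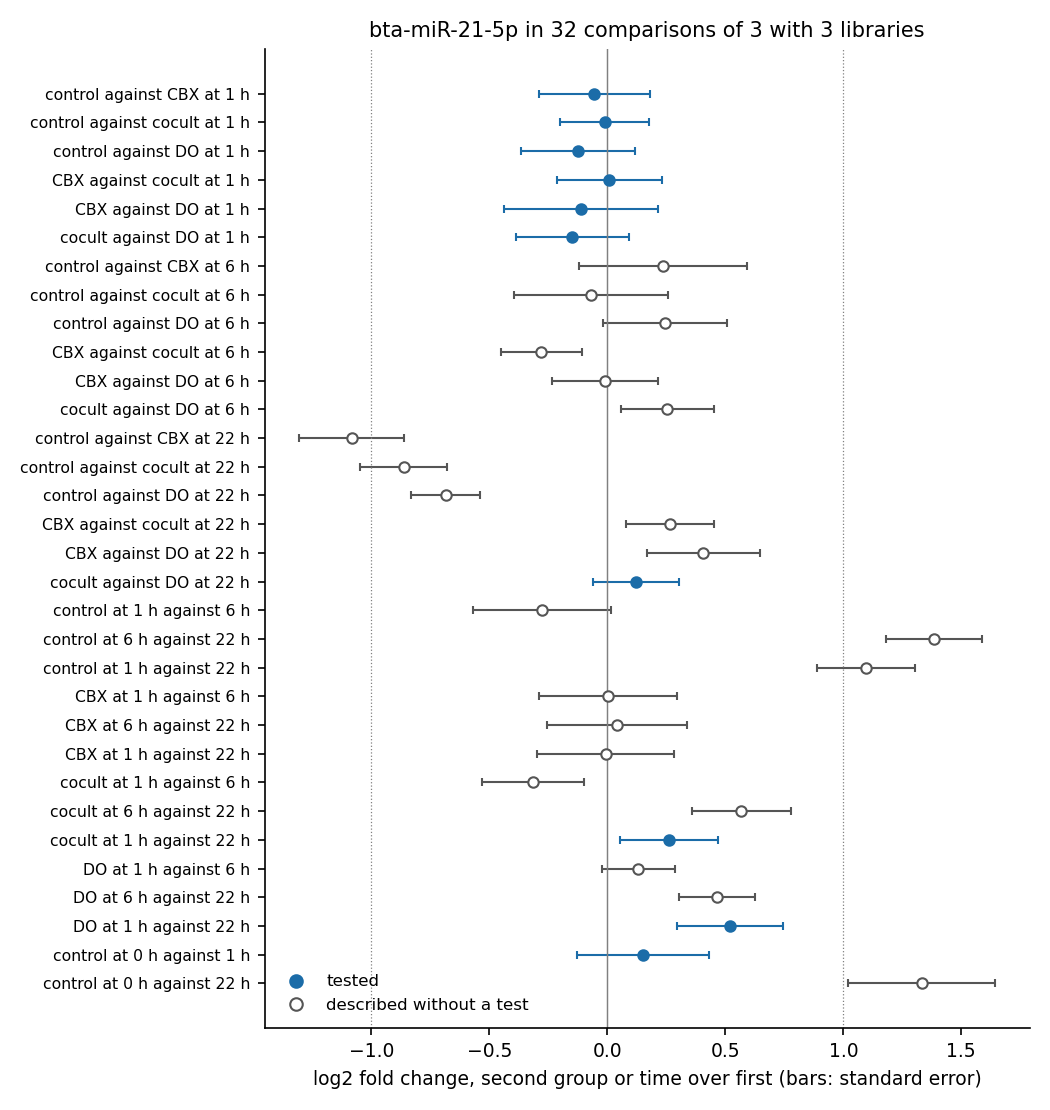
Log2 fold change of bta-miR-21-5p (horizontal axis, bars give the standard error of the edgeR fit) in 32 comparisons of 3 with 3 libraries, with filled points for the 10 tested comparisons and open points for the 22 described without a test; dotted lines mark -1 and 1. Beyond the left line lies the change from control to CBX at 22 h (-1.08). Beyond the right line lie the changes of the control group to 22 h from 6 h (1.39), from 1 h (1.10) and from 0 h (1.33).

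Depth and the replicate number moved with the level. The Spearman correlation of bta-miR-21-5p CPM with the total miRNA count was 0.48 over 39 libraries and 0.43 over the 36 without control 22 h. Outside control 22 h, the 12 libraries numbered replicate 1 had a median of 5171 CPM, against 3424 CPM in the 12 of replicate 2 and 3647 CPM in the 12 of replicate 3. Replicate 1 was the highest library in 7 of the 13 conditions and replicate 3 in 1. In control 22 h, replicate 2 was the highest, and all 3 of its libraries exceeded every replicate 1 library elsewhere. The part of depth in the differences between conditions was not tested.

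Markers of other cells were compared beside these levels, since bta-miR-21-5p is also a miRNA of cumulus cells. In such bulk samples, fewer cells of a type and less RNA per cell cannot be told apart. Of the 10 granulosa and cumulus miRNAs listed, 9 had a count, and miR-212 was at 0. Their summed level at 22 h was between 4487 and 6028 CPM in control, between 4080 and 5874 CPM in CBX, between 4644 and 5311 CPM in cocult and between 3471 and 5532 CPM in DO. The 4 ranges overlapped. Those of bta-miR-21-5p in control and in the other groups did not, but they include the values on which the miRNA was selected. The largest members of the sum were miR-31 and miR-503-5p, with means of 2174 and 1466 CPM over the 39 libraries. Over the 39 libraries the Spearman correlation of this sum with bta-miR-21-5p was 0.11. The libraries share their scaling, and the value is a description. Of the list's members, 7 were fitted between control and CBX at 22 h, with 4 lower and 3 higher in CBX and a median log2 fold change of -0.10, beside -0.03 over all 474 miRNAs. The members lower in CBX were miR-424-5p at -0.69 (SE 0.36), miR-503-5p at -0.52 (SE 0.23), miR-31, the largest by level, at -0.11 (SE 0.20) and miR-202, a miRNA of gonadal somatic cells, at -0.10 (SE 0.39). Those higher in CBX were miR-224 at 1.01 (SE 0.57), miR-132 at 0.63 (SE 0.35) and miR-320a at 0.41 (SE 0.39). From control to DO, 5 of 5 fitted members were lower at 1 h (median -0.30, beside 0.03 over all miRNAs). At 6 h it was 3 of 6 (-0.02, beside 0.02) and at 22 h 5 of 6 (-0.21, beside -0.01). From control to cocult, 4 of 6 were lower at 1 h (-0.01, beside 0.02) and 2 of 6 at 6 h (0.22, beside -0.02). At 22 h it was 5 of 6 (-0.17, beside -0.03). From CBX to DO, 6 of 6 were lower at 1 h (-0.36, beside 0.01). At 6 h it was 3 of 5 (-0.32, beside -0.01) and at 22 h 3 of 5 (-0.02, beside 0.03). Over all miRNAs, between 46.2% and 55.2% were lower in these comparisons from control to DO, control to cocult and CBX to DO. The part of these differences in bta-miR-21-5p was not tested.

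**Figure D5:**
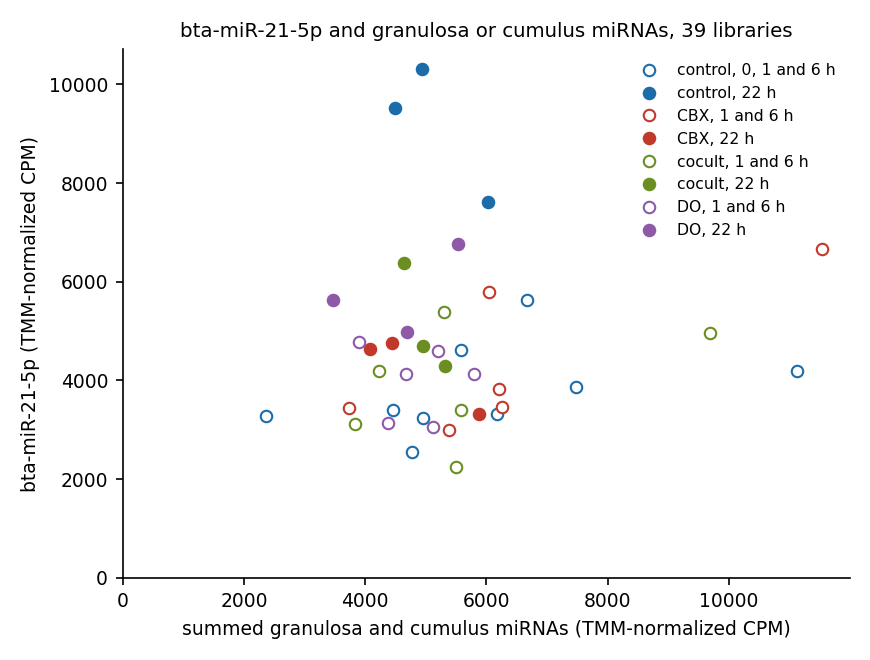
TMM-normalized CPM of bta-miR-21-5p (vertical axis) against the summed CPM of 10 granulosa and cumulus miRNAs (horizontal axis), with 1 point per library, coloured by group and filled at 22 h. The control libraries at 22 h stand highest on the vertical axis, at 7625 to 10310, and between 4487 and 6028 on the horizontal axis, where the other groups at 22 h also lie.

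The other marker lists were low or did not separate the groups alike. Blood and immune miRNAs summed to between 490 and 608 CPM in control and to between 489 and 495 CPM in CBX at 22 h, and miR-142-3p, a defining miRNA of leukocytes, was at 0 in all libraries. MiR-451, a miRNA of red blood cells, had 17 counts in all. Most of the sum at 22 h came from miR-150, with a mean of 507 CPM in control and 440 CPM in CBX. MiR-150 had 1318 counts in all and was counted in each of the 39 libraries, and miR-223 had 206 counts in 21 libraries. The stroma, theca and vessel list summed to between 1776 and 2492 CPM in control and to between 1509 and 1686 CPM in CBX at 22 h, mostly from miR-143, and these ranges did not overlap. The sum of this list at 22 h was between 1867 and 2295 CPM in cocult, above the CBX range. In DO it was between 1501 and 1960 CPM, which overlapped both control and CBX. The part of this list in the difference of bta-miR-21-5p was not tested. Muscle miRNAs varied widely, from 42.6 to 2506 CPM in control and from 381 to 1497 CPM in CBX at 22 h, mostly from miR-206, and miR-133b was at 0. In the 10 tested comparisons, 1 fit of a member of the 4 marker lists passed the threshold, miR-206, lower in DO than in CBX at 1 h with a log2 fold change of -2.23. Over all miRNAs, 7 of the 479 tested (1.46%) passed in that comparison, 8 of 442 (1.81%) in DO from 1 h to 22 h, and 0 in each of the others. The members fitted between CBX and DO at 1 h were 6 of the granulosa, 1 of the blood, 2 of the stroma and 1 of the muscle list. The Spearman correlations of the summed lists with bta-miR-21-5p over 39 libraries were 0.31 (blood), 0.05 (stroma) and -0.12 (muscle).

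The pattern of bta-miR-21-5p over the libraries was compared with those of other known miRNAs. Of 115 others with at least 390 counts, the median Spearman correlation with it over the 39 libraries was 0.12 and the highest 0.55. The 5 most alike were miR-26b (0.55), miR-152 (0.48), miR-148a (0.46), miR-19b (0.45) and miR-26a (0.44). The means of these 5 in control 22 h and elsewhere were close. The mean of miR-26b was 2660 CPM in control 22 h and 2650 CPM in the other 36 libraries, and that of miR-152, of the miR-148 family, was 1208 and 1162 CPM. MiR-148a, one of the most abundant miRNAs of the table, was at 35593 CPM in control 22 h and 33401 CPM elsewhere. Without the control 22 h libraries the correlations of miR-26b and miR-152 were 0.62 and 0.55. The order depended on the measure. By Pearson correlation over the 39 libraries miR-155 was the highest, at 0.47, and miR-26b was at 0.41. Over the 13 condition means the highest Spearman correlations were those of miR-16a (0.80), miR-105a (0.79), miR-200a (0.75) and miR-26b (0.73), and that of miR-19b was 0.19. MiR-155, a miRNA best known from immune cells, is named here after its values were seen, because its mean was 7931 CPM in control 22 h and 1732 CPM in the other 36 libraries. Its control libraries at 22 h were at 6903, 13045 and 3845 CPM, and 4 of the other 36 libraries were above the lowest of these, up to 8280 CPM (DO 22 h replicate 2). All libraries share depth and scaling in this comparison.

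By its mean over the 39 libraries, bta-miR-21-5p took the 19th place among known miRNAs, at 4624 ± 1747 CPM (SD over 39 libraries). Next above it was miR-3432a, at 4933 ± 2928 CPM, and next below it was miR-27b, a miRNA of lipid and vessel biology, at 4134 ± 670 CPM. The spread of miR-27b over the same libraries was thus smaller than that of bta-miR-21-5p, and the means of both neighbours lay within 1 SD of its mean.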

How the data were processed

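MicroRNA libraries of bovine oocytes were made with a kit that carries unique molecular identifiers. The authors trimmed and deduplicated the reads (UMI-tools), checked them with FastQC 0.11.9 and aligned them to ARS-UCD1.2. With miRPro, the reads were assigned to known miRNAs of miRBase and to predicted ones. The deposited values are whole-number counts per mature miRNA, without normalization, for 1030 known and 965 predicted miRNAs.

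Groups and replicate numbers came from the labels. Levels are CPM after TMM scaling over 39 libraries. For each comparison, edgeR 4.0.16 in R 4.3.3 was run on the 6 libraries concerned (filterByExpr at 10 counts and a total of 15, TMM, quasi-likelihood F-test, replicate number as block in place of the ovary pool, Benjamini-Hochberg adjustment over all miRNAs tested). The standard error is the log2 fold change divided by the square root of F. Differences between the time changes of 2 groups came from one fit over all 39 libraries. Where an arm was at 0, a floor of 3 counts was used.

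The members, gene lists and tests were chosen with earlier results of these data known. Named miRNAs were the members, the RT-qPCR references, the 5 most correlated known miRNAs with at least 390 counts, the 5 two-arm miRNAs with most counts, the neighbours in mean level, and the marker lists (granulosa and cumulus, blood and immune, stroma, muscle); a further list is not reported here. Alternatives were no block, other size factors, DESeq2 1.42.0, no filter, library sizes from deduplicated reads, known miRNAs alone, one fit over all libraries, the robust option, the ratio to the references, other floors and correlations, and leaving out each replicate. The correlation without control 22 h was added after seeing the data. The fits were tested on simulated data.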

Additional observations from a re-analysis of the deposited data

Results flagged for a closer look

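The difference of bta-miR-21-5p between control and CBX had opposite directions at 6 h and at 22 h in all replicate pairs. At 6 h the log2 fold change was 0.24 (SE 0.36), with 3 of 3 pairs higher in CBX, but 0.0287 without replicate 1, and at 22 h it was -1.08 (SE 0.22), with 3 of 3 pairs lower in CBX. The difference between the 2 times was not tested, because the 22 h libraries were those on which the miRNA was selected. The control libraries at 6 h and the CBX libraries at 22 h each include a shallow one, with 61 counts of bta-miR-21-5p in control 6 h replicate 1 and 61 in CBX 22 h replicate 2.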

How the results depend on the processing

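In 110 refits of the 10 tested comparisons, 0 passed the threshold, and the lowest adjusted p was 0.174 (DO from 1 h to 22 h, without replicate 2). Values below are log2 fold changes of bta-miR-21-5p. With library sizes from the deduplicated reads, those of 1 h turned to 0.28 (control to CBX) and 0.40 (control to cocult), and that of cocult to DO at 22 h turned to -0.15. With the same sizes, control to CBX at 22 h was -1.74, control to DO -1.02, CBX to cocult 0.89, control 6 h to 22 h 1.64 and 0 h to 22 h 1.99, CBX 6 h to 22 h -0.53 and 1 h to 22 h -0.72, cocult 1 h to 6 h -0.69, DO 1 h to 6 h 0.41 and DO 6 h to 22 h 0.064. That scaling moves the median of all miRNAs, to -0.72 in CBX 1 h to 22 h and to -0.66 in control to CBX at 22 h, and relative to these medians the order of the differences at 22 h was as in the report. Without the replicate block, CBX to cocult at 1 h was -0.054, control to cocult at 6 h 0.041 and CBX 1 h to 6 h -0.0272, and in the other 29 comparisons the direction was kept. In CBX to cocult at 1 h the value was -0.0006 without the low-count filter and -0.0241 in one fit over all libraries, where control to CBX at 1 h was 0.0167. Among known miRNAs alone, control to cocult at 1 h was 0.02, CBX to DO at 1 h 0.033 and control to DO at 22 h -0.60. Relative to miR-92a and miR-93, control to DO at 22 h was -0.81, DO 6 h to 22 h 0.21 and DO 1 h to 22 h 0.28. Over all alternatives, 11 of the 32 comparisons changed sign at least once, each of them at most 0.12 in size as reported, and 21 kept their sign. The cause of these shifts was not tested.

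Leaving out 1 replicate gave control to CBX at 22 h between -1.30 (without replicate 3) and -0.87 (without replicate 2), control 6 h to 22 h between 1.33 and 1.42, and 0 h to 22 h between 0.96 and 1.53. Near 0, the sign changed at 1 h between -0.12 and 0.0098 (control to CBX), -0.23 and 0.12 (control to cocult), -0.39 and 0.0668 (control to DO), -0.22 and 0.24 (CBX to cocult) and -0.40 and 0.17 (CBX to DO), and between -0.0626 and 0.32 for cocult to DO at 22 h. It also changed between -0.39 and 0.20 (control to cocult at 6 h), -0.30 and 0.19 (CBX to DO at 6 h), and within CBX between -0.0677 and 0.0509 (1 h to 6 h), -0.15 and 0.25 (6 h to 22 h) and -0.24 and 0.28 (1 h to 22 h). Same-numbered libraries had deviations from their group means that correlated at -0.01 to 0.46 (median 0.19) in 32 comparisons, over 0.1 in 25 of them. The median for differently numbered ones, -0.10, largely follows from this, because the deviations of a group sum to 0. Depth limits the arm ratio, whose bound is at least 144 when the floor is applied to the sum of a condition.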
